A study of Mus musculus with 8 samples.

Results

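The cluster is a group of 8 genes on mouse chromosome 2, from Exd1 through Mapkbp1, Jmjd7, Pla2g4b, Sptbn5, Ganc and Capn3 to Zfp106, in the order of their coordinates. They were taken by symbol from the 42256 rows of the deposited count table, and all 8 were among the 15852 genes that passed the filter on low counts. The group was put together with the genotype comparison of these same libraries in view, so its fold changes are given as a description of the genes and not as a test of the group. The libraries came from kidneys of 8 adult male mice, whose strain background the labels give as mixed, 129S1/Sv x C57BL/6. Of these, 4 mice were CDH11+/+ and 4 were CDH11-/-, the second lacking cadherin-11, an adhesion protein of mesenchymal cells, according to the labels. All 8, controls included, had been injured with aristolochic acid, a plant toxin of the renal tubule, at 3 mg/kg daily for 5 days, and their kidneys were taken 2 weeks after dosing ended. The allele behind the CDH11-/- label, the number of kidneys per library and the litters were not given in these sources, and no uninjured kidney was analysed here. Replicate numbers only name libraries, and p-values rest on the spread between these 8 mice.

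The genes have little in common beyond their position. Pla2g4b encodes a cytosolic phospholipase A2, an enzyme of the family that frees fatty acids such as arachidonic acid from membrane phospholipids. Jmjd7, just upstream on the same strand, encodes a JmjC-domain oxygenase that hydroxylates a lysine of certain GTPases. Transcripts that read through from Jmjd7 into Pla2g4b are annotated as a gene model of their own, Gm28042. Capn3 encodes calpain 3, a calcium-dependent protease best known from skeletal muscle, where its loss causes a limb-girdle muscular dystrophy. Exd1 encodes a partner of the PIWI-interacting RNA machinery of male germ cells. Sptbn5 is the gene of the giant beta-V spectrin, and Ganc encodes the neutral alpha-glucosidase C that hydrolyses glucose residues from glycogen. Mapkbp1 encodes a scaffold of JNK signalling that is linked to nephronophthisis, and Zfp106 encodes an RNA-binding zinc finger protein needed by motor neurons and muscle.

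The libraries held 10675309 to 18539479 counts, so 1 CPM (counts scaled to a common total, with library sizes set by TMM) stands for few counts, and several of these genes lay at a few CPM. Cdh11, the targeted gene, was 58.0 to 75.6 CPM in the libraries labelled CDH11+/+ and 89.9 to 117.2 CPM in those labelled CDH11-/-. It passed the test as higher in the CDH11-/- libraries (log2 fold change 0.69 ± 0.11, SE, edgeR adjusted p = 0.0249). The transcript level therefore does not mark the CDH11-/- libraries as lacking it, and genotypes are used as labelled throughout, in every direction given. The tissue label was checked against markers. Those of the proximal tubule summed to 2336 to 7994 CPM over the 8 libraries, while male germ cell markers summed to 1.53 to 2.93 CPM and skeletal muscle markers to 5.72 to 7.42 CPM. CDH11+/+ replicate 1 stood apart from the other 3 controls. Its proximal tubule markers summed to 2909 CPM against 5544 to 7994 CPM in the other controls and 2336 to 5988 CPM in the CDH11-/- libraries, and its macrophage markers to 5114 CPM against 3541 to 3892 CPM and 4100 to 5243 CPM. These sums lean on the marker of highest mean in each list. Kap, a proximal tubule marker, was 2327 ± 1723 CPM in the controls and 1495 ± 1231 CPM in the CDH11-/- libraries (mean and SD). Lyz2, a macrophage marker, was 2088 ± 306 and 2400 ± 330 CPM. The sums are therefore not read as a shift of whole cell types in CDH11+/+ replicate 1. Fold changes of the members are given with and without that library.

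Start sites are shown for the genes whose groups did not overlap and that the RefSeq promoter table (GRCm38.p6) lists, so that a reader can see what the count rows share. The table holds 7 of the 8 genes, and Pla2g4b is the one it lacks. Each window runs from 250 bases before to 50 bases after the start, 5′ to 3′ on the gene's strand. Capitals mark the letters of a TATA box (TATAAA), of a CCAAT box (CCAAT) and of a GC box (GGGCGG). Both strands were searched, and a match on the minus strand of the window is printed as its reverse complement. No matches shown overlap each other. Jmjd7 and Gm28042 have the same window, chr2:120027233-120027532 on the plus strand.
Jmjd7 and Gm28042: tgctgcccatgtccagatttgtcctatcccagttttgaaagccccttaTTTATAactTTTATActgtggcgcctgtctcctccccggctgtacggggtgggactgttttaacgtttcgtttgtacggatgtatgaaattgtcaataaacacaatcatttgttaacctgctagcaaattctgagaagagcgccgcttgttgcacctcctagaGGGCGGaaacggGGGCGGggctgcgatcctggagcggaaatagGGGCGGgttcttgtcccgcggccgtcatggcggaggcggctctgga
The window of Exd1 is chr2:119547578-119547877 on the minus strand.
Exd1: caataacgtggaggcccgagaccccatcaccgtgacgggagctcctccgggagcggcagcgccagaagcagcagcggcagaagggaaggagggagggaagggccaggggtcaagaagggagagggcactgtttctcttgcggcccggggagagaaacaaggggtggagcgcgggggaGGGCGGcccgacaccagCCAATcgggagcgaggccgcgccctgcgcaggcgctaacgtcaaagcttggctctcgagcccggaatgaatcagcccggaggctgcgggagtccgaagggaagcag
Capn3 has starts at separate places on the plus strand, with windows chr2:120463343-120463642 and chr2:120476659-120476958.
Capn3, upstream start: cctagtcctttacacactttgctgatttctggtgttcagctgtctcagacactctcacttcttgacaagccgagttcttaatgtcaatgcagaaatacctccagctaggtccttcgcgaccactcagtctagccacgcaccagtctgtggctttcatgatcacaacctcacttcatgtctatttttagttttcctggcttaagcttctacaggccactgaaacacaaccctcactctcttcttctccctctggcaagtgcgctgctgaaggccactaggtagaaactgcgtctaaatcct
Capn3, downstream start: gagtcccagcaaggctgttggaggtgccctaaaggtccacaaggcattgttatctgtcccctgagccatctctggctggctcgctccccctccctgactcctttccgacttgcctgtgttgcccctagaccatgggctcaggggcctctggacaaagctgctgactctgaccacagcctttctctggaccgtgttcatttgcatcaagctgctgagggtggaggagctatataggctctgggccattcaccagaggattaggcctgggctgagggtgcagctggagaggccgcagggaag
The window shared by Jmjd7 and Gm28042 holds 19 CpG dinucleotides, 3 GC box and 2 TATA box matches, the latter on the minus strand at -202 to -197 and -193 to -188 relative to the start. The Exd1 window holds 26 CpG dinucleotides, 1 CCAAT box and 1 GC box match. The Capn3 windows hold 6 and 4 CpG dinucleotides and none of the 3 motifs. Over 32817 promoter windows of the same length the median was 7 CpG dinucleotides, 35.6% held a GC box match, 37.4% a CCAAT box match and 13.6% a TATA box match. These matches describe the letters of the windows only.

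The members lie on GRCm38 (mm10) in the GENCODE M21 annotation. Mapkbp1 ends at 120027408, 74 bases before the start of Jmjd7 at chr2:120027483-120032594. Gm28042 (ENSMUSG00000033852, chr2:120027493-120043033) starts within the first exon of Jmjd7 and runs through to the end of Pla2g4b (chr2:120033417-120043030), all on the plus strand. Of the 1960 exonic bases of Jmjd7, 66.7% are also exonic in Gm28042, and of the 5831 exonic bases of Pla2g4b, 66.5% are. Only 1 of the 6 annotated Pla2g4b transcripts is classed as protein-coding, and the other 5 retain introns. Sptbn5 (chr2:120041493-120085693), on the minus strand and annotated as a processed transcript, overlaps the 3′ end of Pla2g4b by 792 exonic bases, 13.6% of those of Pla2g4b. Ganc (chr2:120403896-120461700) and Capn3 (chr2:120456019-120504913) share 386 exonic bases on the plus strand, 7.68% of those of Capn3. Exd1 (chr2:119516505-119547627, minus strand) overlaps no other model. The sources used here do not say how the authors' counting assigned a read that fits several models, nor whether it used strand, so the split of reads among Jmjd7, Gm28042 and Pla2g4b is uncertain, and so, to a smaller extent, are those between Pla2g4b and Sptbn5 and between Ganc and Capn3.

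**Figure D1:**
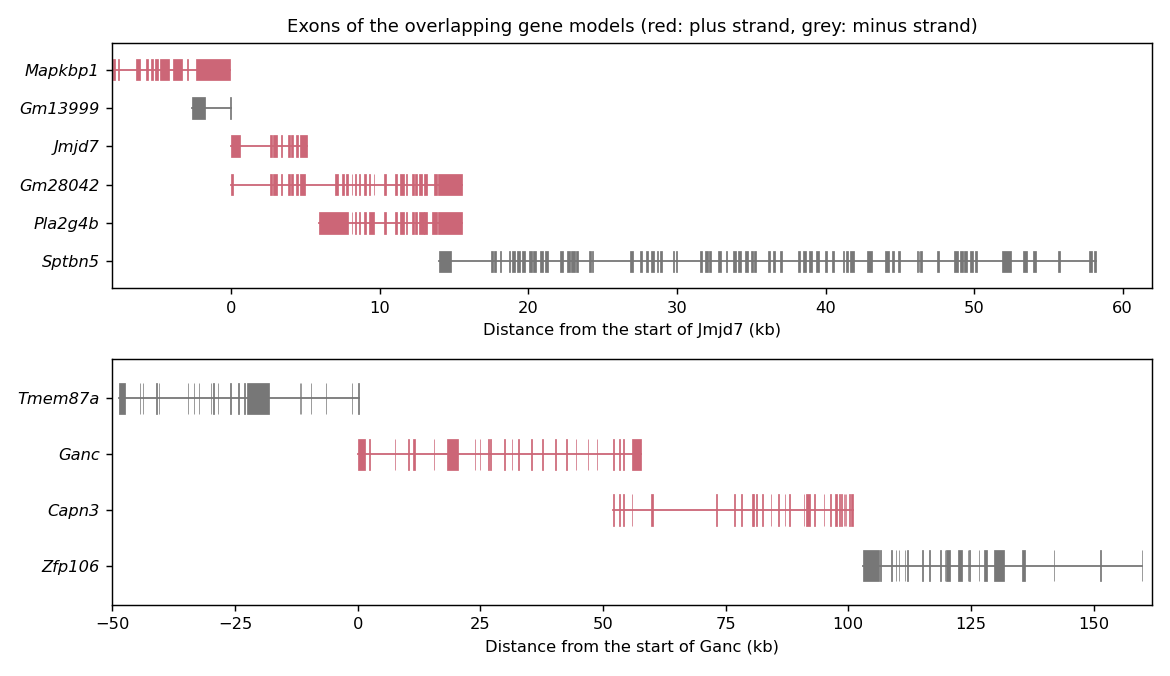
Exons (boxes) and spans (lines) of the gene models around Jmjd7 and Pla2g4b (upper panel) and around Ganc and Capn3 (lower panel), by distance in kb from the start of Jmjd7 or of Ganc. Red models are on the plus strand and grey on the minus strand. Gm28042 covers exons of both Jmjd7 and Pla2g4b, and Sptbn5 and Capn3 overlap their neighbours only at an end.

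The comparison asked how each gene's RNA level differed between the CDH11-/- and the CDH11+/+ kidneys after the same injury. In the edgeR quasi-likelihood test with Benjamini-Hochberg adjustment over all 15852 genes, Pla2g4b and Capn3 were higher, Exd1 was lower and the other 5 members did not pass an adjusted p of 0.05. That is 3 of 8, where 115 of the 15852 genes tested, 0.725%, passed, 0.36% higher and 0.366% lower. Because the genes were picked from this contrast, nothing is read from that difference in share. The libraries of the groups did not overlap for 4 members (the 3 above and Jmjd7), as for 7.33% of all genes tested (3.59% with the CDH11-/- libraries higher), and they overlapped for Mapkbp1, Sptbn5, Ganc and Zfp106. In whole-kidney RNA, fewer cells of a kind and less RNA per cell cannot be told apart.

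Pla2g4b (ENSMUSG00000098488) was 1.85, 1.90, 1.27 and 0.617 CPM in CDH11+/+ replicates 1 to 4 and 6.25, 5.24, 6.81 and 9.09 CPM in CDH11-/- replicates 1 to 4. Every CDH11-/- library lay above every control, and CDH11+/+ replicate 1 lay among the other controls. These levels rest on 8 to 25 counts per control library and on 81 to 129 counts per CDH11-/- library. Its mean moved from 1.41 ± 0.600 to 6.85 ± 1.63 CPM (SD, n = 4 each), a fitted log2 change of 2.28 ± 0.29 (SE, edgeR adjusted p = 0.00665). Without CDH11+/+ replicate 1 the log2 fold change was 2.43 ± 0.32 (SE, edgeR adjusted p = 0.00299), in a fit where 6.18% of all genes passed.

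Jmjd7 (ENSMUSG00000098789) was 3.69, 0.380, 0.554 and 0.925 CPM in the controls, from 40, 5, 7 and 12 counts, and 5.98, 6.72, 6.70 and 6.51 CPM in the CDH11-/- libraries. The CDH11-/- libraries were close together and all above the controls, and CDH11+/+ replicate 1 lay 52.4% of the way from the mean of the other controls to the CDH11-/- mean. Averages per genotype were 1.39 ± 1.55 and 6.48 ± 0.348 CPM (SD, n = 4 each), a fitted log2 change of 2.30 ± 0.46 that missed the threshold (SE, edgeR adjusted p = 0.0628). Without that library the log2 fold change was 3.38 ± 0.26 and passed it (SE, edgeR adjusted p = 0.000188). With all 8 libraries kept, it also passed in edgeR without robust moderation (2.30 ± 0.44, SE, adjusted p = 0.0491), so the call depends on the fit as well as on that library. The same library had the low proximal tubule and high macrophage marker sums, and the part of those cell types in the result was not tested.

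The readthrough model Gm28042 was 7.38, 1.37, 1.19 and 0.617 CPM in the controls and 10.7, 7.95, 8.60 and 7.88 CPM in the CDH11-/- libraries. The groups did not overlap, but CDH11+/+ replicate 1 lay 81.9% of the way from the mean of the other controls to the CDH11-/- mean. Its log2 fold change was 1.81 ± 0.59 with all libraries (SE, edgeR adjusted p = 0.231) and 3.05 ± 0.26 without CDH11+/+ replicate 1 (SE, edgeR adjusted p = 0.000275).

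**Figure D2:**
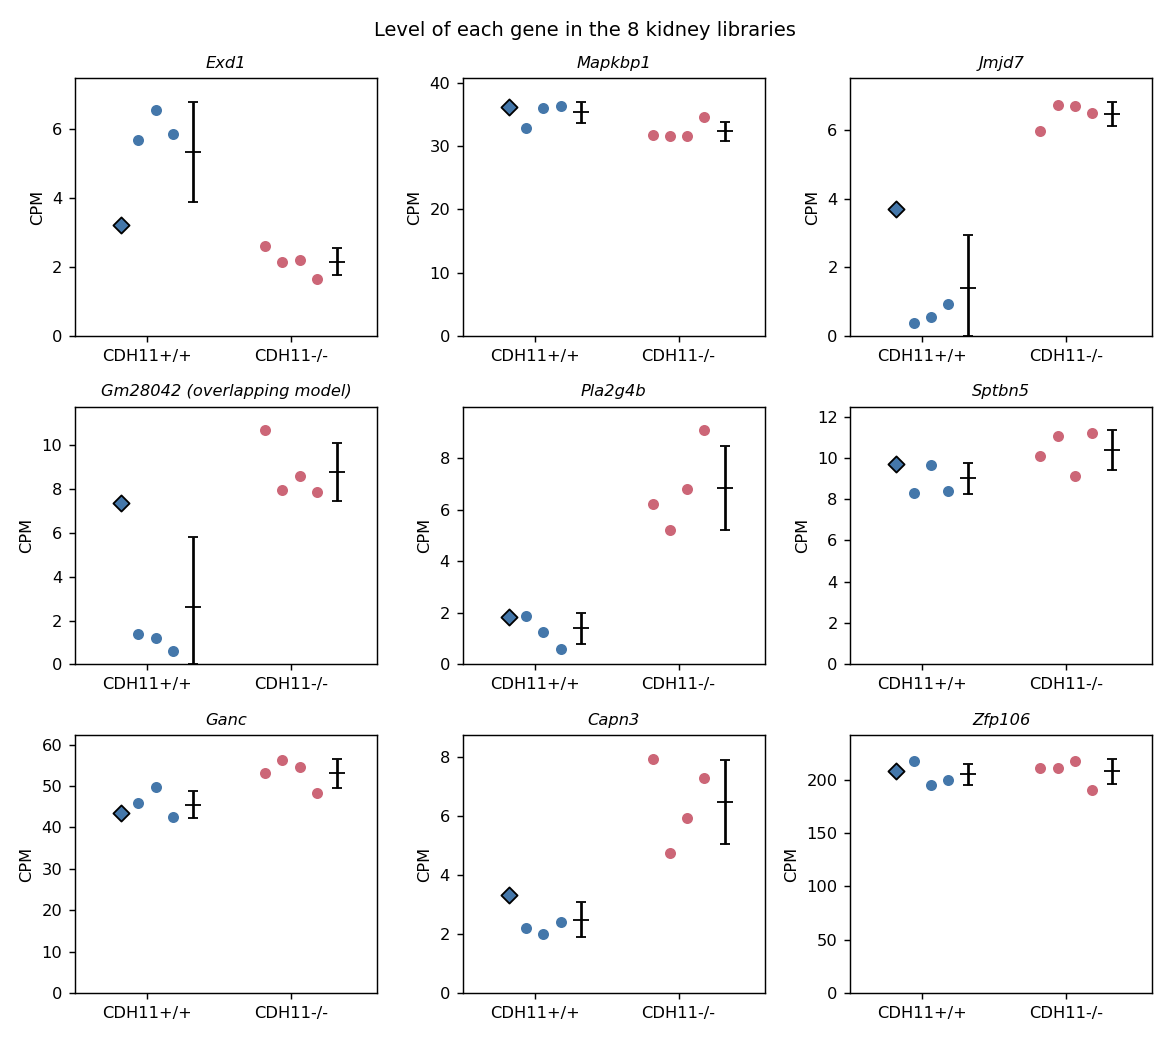
Level in CPM of the 8 members and of the overlapping model Gm28042 in each of the 8 libraries (points). Black marks show the group mean ± SD (n = 4), with the lower bar cut at 0 where the SD exceeds the mean. The outlined diamond is CDH11+/+ replicate 1, which sits apart from the other controls for Exd1, Jmjd7 and Gm28042, is the highest control for Capn3 and, by little, Sptbn5, and lies within the range of the others for Pla2g4b, Mapkbp1, Ganc and Zfp106.

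Because reads of these plus-strand models could have been divided in several ways, their levels were also summed. Jmjd7, Gm28042 and Pla2g4b together came to 12.9, 3.65, 3.01 and 2.16 CPM in the controls and 22.9, 19.9, 22.1 and 23.5 CPM in the CDH11-/- libraries. The CDH11-/- libraries thus held a narrow range, and the controls fell into 1 library at 12.9 CPM and 3 below 4 CPM. Averages per genotype were 5.43 ± 5.03 and 22.1 ± 1.56 CPM (SD, n = 4 each), and the log2 fold change of the summed row was 2.07 ± 0.48 (SE, edgeR adjusted p = 0.126). Without CDH11+/+ replicate 1 the control mean was 2.94 ± 0.746 CPM (SD, n = 3) and the log2 fold change was 2.92 ± 0.16 (SE, edgeR adjusted p = 5.65e-06). Pooled with the models on its strand, Pla2g4b thus kept its direction, and the pooled row missed the threshold with all 8 libraries and passed it without that one. With Sptbn5 added as well, which would apply if strand had not been used, the summed log2 fold change was 1.18 ± 0.21 and passed the threshold (SE, edgeR adjusted p = 0.0456). That call held without CDH11+/+ replicate 1 (1.48 ± 0.10, SE, edgeR adjusted p = 2.35e-05) and ended when any other library was left out, with adjusted p from 0.0764 to 0.145.

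The share of the pooled counts given to each model shows how the authors' counting divided them. Pla2g4b took 14.3%, 52.1%, 42.1% and 28.6% of the counts of the 3 models in the controls and 27.3%, 26.3%, 30.8% and 38.7% in the CDH11-/- libraries. Those shares rest on 140, 48, 38 and 28 counts in the controls, so the 95% exact binomial interval was as wide as 13.2% to 48.7% in CDH11+/+ replicate 4, for counting error alone, and it was 8.95% to 21.2% in replicate 1. The mean share of Pla2g4b was 34.3% ± 16.4 in the controls and 30.8% ± 5.64 in the CDH11-/- libraries (SD, n = 4 each). The shares overlapped between the groups for each of the 3 models, with Gm28042 at 40.7% ± 12.0 and 39.8% ± 5.37 and Jmjd7 at 25.1% ± 14.0 and 29.5% ± 3.34. CDH11+/+ replicate 1 had the smallest share in Pla2g4b of the 8 libraries and the largest in Gm28042, 57.1%. It lay among the other controls for Pla2g4b alone and above them for the sum.

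**Figure D3:**
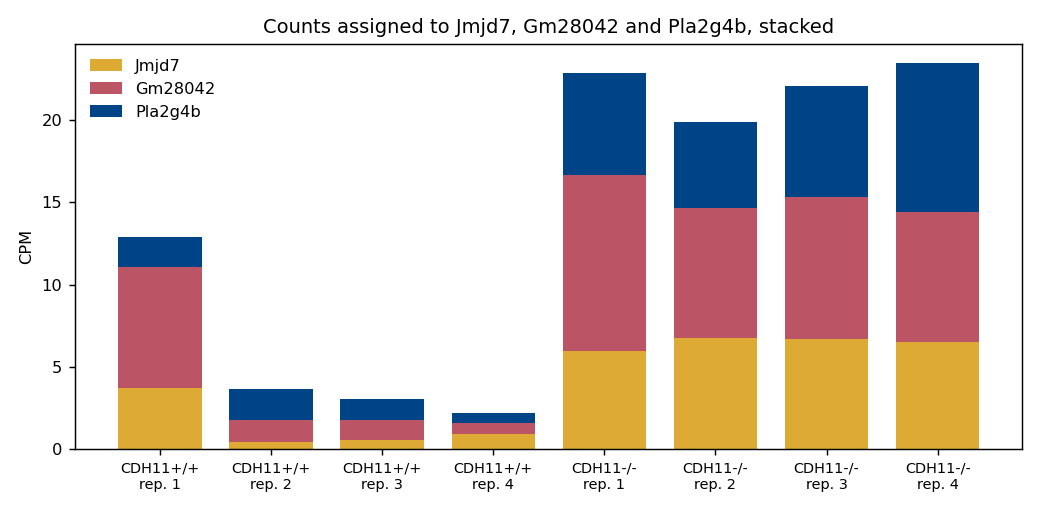
CPM assigned to Jmjd7, Gm28042 and Pla2g4b, stacked for each of the 8 libraries, with the height of a bar their sum. The 4 CDH11-/- bars reach 19.9 to 23.5 CPM, CDH11+/+ replicate 1 reaches 12.9 CPM, and the other 3 controls reach 2.16 to 3.65 CPM.

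The authors' normalized table gives a further view of the same counts. In it each count is divided by a factor particular to the gene and the library, and for Pla2g4b the factor ranged over 2.68 log2 units across the libraries, wider than for 99.9% of the 14733 genes whose count reached 10 in all 8 libraries (median range 0.15). Pla2g4b itself had 8 counts in 1 library and is not among those genes. Of the 1804 genes whose lowest count was between 5 and 20, it had a wider range than 98.6% (median range 0.13). The normalized values of Pla2g4b were 36.1, 11.4, 13.6 and 23.6 in the controls and 114.1, 42.0, 115.0 and 102.9 in the CDH11-/- libraries, without overlap. For Gm28042, by contrast, the groups overlapped in these values, with CDH11+/+ replicate 1 at 108.3 and CDH11-/- replicate 4 at 107.1. With limma on log2(value + 1) of these values the log2 fold change of Pla2g4b was 2.13 ± 0.42 and did not pass (SE, adjusted p = 0.0653), where 0.341% of all genes did. The factor of Jmjd7 ranged over 1.03 log2 units, wider than for 82.9% of the genes of low count, and those of Ganc, Capn3 and Exd1 over 0.53, 0.41 and 0.08.

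Capn3 (ENSMUSG00000079110) was 3.32, 2.20, 1.98 and 2.39 CPM in the controls and 7.92, 4.72, 5.91 and 7.27 CPM in the CDH11-/- libraries. All CDH11-/- libraries were above all controls, and CDH11+/+ replicate 1 was the highest control. Averages per genotype were 2.47 ± 0.590 and 6.46 ± 1.43 CPM (SD, n = 4 each), a fitted log2 change of 1.39 ± 0.22 (SE, edgeR adjusted p = 0.0224). Counts were 25 to 36 per control library and 73 to 118 per CDH11-/- library. The call ended when any 1 of 6 libraries was left out, with adjusted p from 0.0529 to 0.0961, and held without CDH11+/+ replicate 1 (1.56 ± 0.24, SE, edgeR adjusted p = 0.00649) and without CDH11-/- replicate 2 (adjusted p = 0.0143).

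Skeletal muscle is the tissue where Capn3 is best known, and its markers are given beside it. Of 13 muscle markers 4 passed the filter and 0 passed the test, with sums of 5.72 to 7.12 CPM in the controls and 5.91 to 7.42 CPM in the CDH11-/- libraries. At an unadjusted p under 0.05 there were also 0, and, with log2 fold changes such as 0.31 ± 0.35 for Actn3, a fast-fibre actinin (SE, edgeR adjusted p = 0.735), the muscle marker sums overlapped between the groups. DESeq2 and limma-voom called 0 of them. The part of muscle RNA in the level of Capn3 was not tested.

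Ganc (ENSMUSG00000062646), which shares its last exons with Capn3, was 43.5, 46.0, 49.8 and 42.6 CPM in the controls and 53.1, 56.4, 54.7 and 48.3 CPM in the CDH11-/- libraries. CDH11-/- replicate 4 was below CDH11+/+ replicate 3, so the groups overlapped. The log2 fold change was 0.23 ± 0.07 (SE, edgeR adjusted p = 0.198). Summed over Ganc and Capn3, the CDH11-/- libraries reached 55.6 to 61.1 CPM and the controls 45.0 to 51.8 CPM without overlap, at a log2 fold change of 0.31 ± 0.07 that did not pass (SE, edgeR adjusted p = 0.0590). Without CDH11+/+ replicate 1 the sum had 0.31 ± 0.07 and passed (SE, edgeR adjusted p = 0.0281). The mean of Capn3 rose by less than 4 CPM and that of Ganc was higher by less than 8 CPM.

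Exd1 (ENSMUSG00000048647) was the member that fell. It was 3.23, 5.70, 6.57 and 5.86 CPM in the controls and 2.62, 2.13, 2.22 and 1.67 CPM in the CDH11-/- libraries, from 35 to 83 and 22 to 42 counts. The groups did not overlap, but CDH11+/+ replicate 1 lay 72.4% of the way from the mean of the other controls, 6.04 ± 0.462 CPM (SD, n = 3), to that of the CDH11-/- libraries. Averages per genotype were 5.34 ± 1.46 and 2.16 ± 0.391 CPM (SD, n = 4 each), a fitted log2 change of -1.31 ± 0.24 (SE, edgeR adjusted p = 0.0329). Without CDH11+/+ replicate 1 it was -1.46 ± 0.19 (SE, edgeR adjusted p = 0.00325), and the call ended when any other library was left out, with adjusted p from 0.0731 to 0.129.

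Proximal tubule markers are given beside Exd1, since this segment takes most of the toxic injury in such kidneys. All 14 proximal tubule markers had negative log2 fold changes, with a median of -0.79 against -0.01 over all genes tested. Of them 1 passed the test, Slc13a3, a dicarboxylate transporter (-1.51 ± 0.24, SE, edgeR adjusted p = 0.0469), and 11 had an unadjusted p under 0.05. The share of all genes under that unadjusted p was not counted, so no excess is read from such counts in any list. DESeq2 called 8 of the 14 and limma-voom 7. The proximal tubule marker sum was lowest among the controls in the same replicate 1 that was lowest for Exd1, and its ranges overlapped between the genotypes. That sum and its range lean on Kap, the marker of highest mean and SD (-0.64 ± 0.89, SE, edgeR adjusted p = 0.794). Neither is therefore read as a property of all 14 markers. The male germ cell markers, by contrast, were too low to be tested, 0 of 11 passing the filter, and Tnp1 and Sycp1 were at 0 in every library. Whether tubule cells account for the level of Exd1 was not tested.

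The remaining members showed no call. Zfp106 (ENSMUSG00000027288, chr2:120506820-120563843) was the most abundant, with 208.3, 217.4, 195.2 and 199.7 CPM in the controls and 211.5, 211.2, 218.1 and 190.7 CPM in the CDH11-/- libraries. Its fitted log2 change of 0.02 ± 0.06 (SE, edgeR adjusted p = 0.922) had a sign that turned under 3 of the 19 other settings. Mapkbp1 (ENSMUSG00000033902, chr2:119972699-120027408) was 36.2, 32.9, 36.0 and 36.4 CPM in the controls and 31.8, 31.5, 31.6 and 34.6 CPM in the CDH11-/- libraries, a fitted log2 change of -0.13 ± 0.07 (SE, edgeR adjusted p = 0.425). Mapkbp1 ends 74 bases before Jmjd7 begins, and its values differ in sign from those of Jmjd7. Sptbn5 (ENSMUSG00000074899) was 9.69, 8.28, 9.65 and 8.40 CPM in the controls and 10.1, 11.1, 9.13 and 11.2 CPM in the CDH11-/- libraries, a fitted log2 change of 0.20 ± 0.12 (SE, edgeR adjusted p = 0.474). The groups overlapped for these 3 genes. Without CDH11+/+ replicate 1 the log2 fold changes of Ganc, Mapkbp1, Sptbn5 and Zfp106 were 0.22, -0.11, 0.25 and 0.04, and none of the 4 passed (edgeR adjusted p from 0.133 to 0.805). Of the other models that overlap a member, Tmem87a was 53.7 to 61.4 CPM in the controls and 55.3 to 58.8 CPM in the CDH11-/- libraries, Gm13999 reached at most 0.152 CPM and Mir7665 was at 0 throughout.

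Per kb of exon, the order of the levels differed between the genotypes. In the controls it ran from Zfp106 (19.7 ± 0.940 CPM per kb, SD, n = 4) through Ganc (5.00 ± 0.358) and Mapkbp1 (4.65 ± 0.217) to Exd1 (0.884 ± 0.241), Sptbn5 (0.772 ± 0.0658), Jmjd7 (0.708 ± 0.792), Capn3 (0.492 ± 0.117) and Pla2g4b (0.241 ± 0.103). Ganc and Mapkbp1 lay within their spread of each other there, as did Exd1, Sptbn5 and Jmjd7, Jmjd7 and Capn3, and Jmjd7 and Pla2g4b. This order rests in part on CDH11+/+ replicate 1. Without it Jmjd7 was at 0.316 ± 0.142 CPM per kb (SD, n = 3), below Capn3 at 0.436 ± 0.0411. Pla2g4b was then at 0.216 ± 0.110, and Jmjd7 lay within the spread of both. In the CDH11-/- libraries Zfp106 (19.9 ± 1.14), Ganc (5.84 ± 0.382) and Mapkbp1 (4.26 ± 0.196) came first again. They were followed by Jmjd7 (3.31 ± 0.178), Capn3 (1.29 ± 0.285), Pla2g4b (1.17 ± 0.280), Sptbn5 (0.889 ± 0.0827) and, last, Exd1 (0.357 ± 0.0647). Capn3 and Pla2g4b lay within their spread of each other, and Pla2g4b and Sptbn5 did so only just. The shared exons make these lengths uncertain for Jmjd7, Pla2g4b and, less so, Capn3.

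The other genes of the neighbourhood were read beside the members. Within 1 Mb of the first start and the last end of the cluster, 76 genes were tested. Of these, 3 passed the threshold, 3.95%, and all 3 were members. Of the 68 other genes 0 passed in edgeR, 6 had an unadjusted p under 0.05, and DESeq2 called 0. The share of all genes tested under that unadjusted p was not counted. Limma-voom called 1 (Gm28042) and edgeR without CDH11+/+ replicate 1 called 2, Gm28042 and Ehd4, a gene of endosomal recycling (0.36 ± 0.09, SE, edgeR adjusted p = 0.0332). The groups did not overlap for 5 of the 68, 7.35%, near the 7.33% of all genes. Their median absolute log2 fold change was 0.09 against 0.11 over all genes tested, and Gm28042 was the only one beyond 1. On chromosome 2 as a whole 17 of 1263 genes tested passed, 1.35%. The nearest call downstream of the cluster was Slc24a5, a cation exchanger of pigment cells, 5.03 Mb downstream of Pla2g4b (1.86 ± 0.35, SE, edgeR adjusted p = 0.0393).

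The non-member genes of smallest p within 1 Mb, predicted models aside, differed by little. Nusap1, of the mitotic spindle, had a log2 fold change of 0.34 ± 0.12, Ccdc9b of 0.27 ± 0.09 and Wdr76 of 0.27 ± 0.11. Ino80, a chromatin remodeller next to Exd1, had 0.17 ± 0.06, and Pdia3, a disulfide isomerase of the endoplasmic reticulum, -0.14 ± 0.06 (all SE, edgeR adjusted p from 0.200 to 0.350). Chp1, which encodes a calcineurin-like calcium-binding protein and starts at 119547697, facing away from Exd1, was 93.1 to 103.9 CPM in the controls and 81.8 to 93.1 CPM in the CDH11-/- libraries, just without overlap. Its log2 fold change was -0.18 ± 0.06 (SE, edgeR adjusted p = 0.242), the sign of Exd1 at a smaller size.

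**Figure D4:**
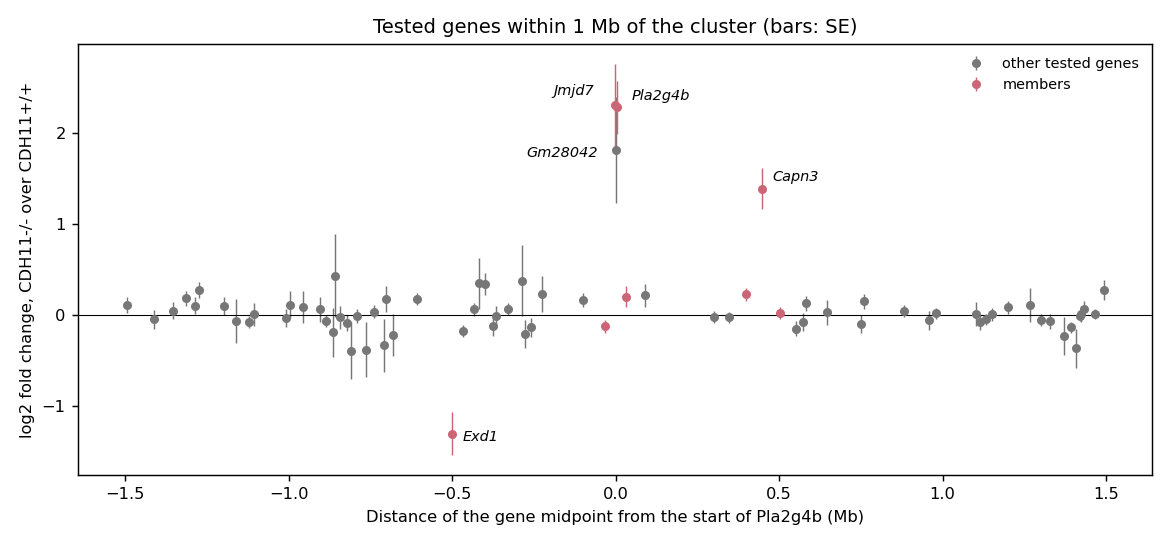
Log2 fold change (CDH11-/- over CDH11+/+, bars SE) of the 76 genes tested within 1 Mb of the cluster, by the distance of their midpoint from the start of Pla2g4b in Mb. Members are red; Jmjd7, Pla2g4b, Gm28042 and Capn3 stand above and Exd1 below, and the other genes lie between -0.39 and 0.43.

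Relatives of each member elsewhere in the genome were counted from lists drawn up by family. Among 6 cytosolic phospholipase A2 genes 3 passed the filter, and only Pla2g4b passed the test. Pla2g4a, the arachidonate-selective enzyme, was 20.8 ± 2.99 and 24.3 ± 2.20 CPM (SD, n = 4 each, log2 fold change 0.23 ± 0.11, SE, edgeR adjusted p = 0.390), and Pla2g4c was 1.97 ± 0.423 and 1.58 ± 0.508 CPM (-0.34 ± 0.28, adjusted p = 0.631). Per kb of exon Pla2g4a was at 3.53 CPM over all libraries, above Pla2g4b in both genotypes. Pla2g4d, Pla2g4e and Pla2g4f, which sit between Sptbn5 and Ganc on the other strand, were too low to be tested, with means of at most 0.709 CPM. Of 16 genes of arachidonic acid metabolism 0 passed the edgeR test and 3 had an unadjusted p under 0.05. DESeq2 called 0 and limma-voom 1, Ptgis. The smallest p were those of Ptgis, prostacyclin synthase (0.47 ± 0.13, SE, edgeR adjusted p = 0.142), and Hpgd, which inactivates prostaglandins (0.44 ± 0.16, adjusted p = 0.254).

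In the other families edgeR called at most the member itself. Of 16 calpain genes and regulators 10 were tested and only Capn3 passed. Capn2, the large subunit of m-calpain, was 194.4 ± 16.0 and 214.4 ± 10.3 CPM (SD, n = 4 each, log2 fold change 0.14 ± 0.07, SE, edgeR adjusted p = 0.386). Of 10 small JmjC proteins, 12 tested spectrins and partners, 5 tested glycoside hydrolases of Ganc's family and 12 tested genes of JNK scaffolds and kinases, 0 passed in edgeR. At an unadjusted p under 0.05 there were 2, 1, 2 and 1 in that order, and DESeq2 and limma-voom called 1 gene in all 4 lists, Jmjd7. Their non-members of smallest p were Jmjd6 (-0.16 ± 0.07), the spectrin partner Add3 (-0.29 ± 0.10), the glucosidase II subunit gene Prkcsh (-0.15 ± 0.06) and Traf2 (-0.15 ± 0.07), with edgeR adjusted p from 0.211 to 0.344 (all SE). Of 14 genes of the piRNA pathway only Exd1 and Piwil2, a PIWI protein, passed the filter, and Piwil2 was 0.878 ± 0.300 and 0.842 ± 0.429 CPM (SD, n = 4 each, log2 fold change -0.01 ± 0.44, SE, edgeR adjusted p = 0.994). Asz1 and Mov10l1 were at 0 in every library.

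Lists of other cell types moved in part with the genotype and are given beside these results. Markers of B and plasma cells summed to 172.0 to 268.0 CPM in the controls and 368.2 to 433.4 CPM in the CDH11-/- libraries, without overlap, and 0 of 7 tested passed in edgeR, with 3 at an unadjusted p under 0.05. DESeq2 called 1 of them, Pou2af1, and limma-voom 2, Pou2af1 and Jchain. The smallest p were those of Pou2af1, a B cell coactivator (2.31 ± 0.48, SE, edgeR adjusted p = 0.0688), and Mzb1, a plasma cell chaperone (1.15 ± 0.34, adjusted p = 0.166). Macrophage markers (0 of 9) and markers of other kidney cells (0 of 12) had median log2 fold changes of 0.12 and 0.06, with 0 and 5 at an unadjusted p under 0.05. Of the latter list, DESeq2 called the endothelial and podocyte genes Kdr and Nphs1, and limma-voom these and Pecam1. The part of B and plasma cells in the levels of Pla2g4b, Jmjd7 and Capn3 was not tested.

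Genes elsewhere whose profile over the 8 libraries was most like a member's were found by the root mean square difference of log2 CPM, each gene centred on its own mean. For Pla2g4b these were Adgrg5, an adhesion receptor of lymphocytes and eosinophils (0.46), Tenm2 (0.50) and Mucl1 (0.56). For Capn3 they were the metalloprotease gene Mmp9 (0.23), Penk, encoding the precursor of enkephalins (0.25), and Inhba, encoding an activin subunit (0.26). For Exd1 they were Adgrf1 (0.24), Cyp27b1, the renal vitamin D 1-alpha-hydroxylase (0.25), and the zinc transporter gene Slc39a5 (0.26). Of these 9, Adgrg5, Tenm2 and Adgrf1 passed the test. The measure includes the difference between the genotypes, and all genes share the same 8 libraries.

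The calls were followed over 19 other settings of the fit. With DESeq2, which called 2.79% of all genes, and with limma-voom, which called 4.32%, Jmjd7 passed along with Pla2g4b, Capn3 and Exd1. Jmjd7 had a log2 fold change of 2.25 ± 0.51 in DESeq2 (SE, adjusted p = 0.00154) and of 3.05 ± 0.35 in limma-voom, which weights each library by its quality (SE, adjusted p = 0.00370).

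**Figure D5:**
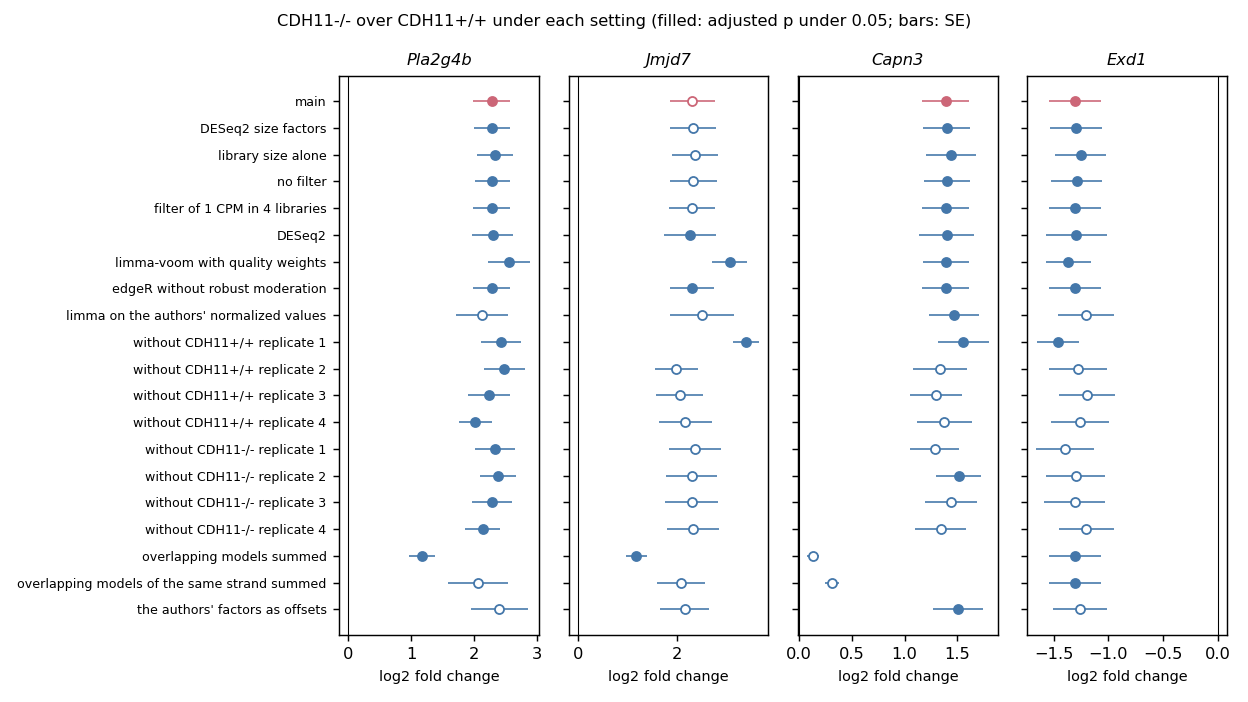
Log2 fold change (CDH11-/- over CDH11+/+, bars SE) of Pla2g4b, Jmjd7, Capn3 and Exd1 in the main fit (red) and under 19 other settings (blue), filled where the adjusted p is under 0.05. Signs are the same in every row, Jmjd7 is filled in 5 of the 19, and summing overlapping models moves Capn3 to 0.14 and 0.31. Those summed rows are mostly counts of Ganc and, at 0.14, of Tmem87a as well.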

How the data were processed

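Whole-kidney RNA libraries from a directional kit, per the labels' protocols, were sequenced from 8 mice grouped by labelled genotype. Where the title of the series (Unx/AngII) and the labels disagree on the injury, the labels were used. The authors deposited a count table by Ensembl gene and a table of normalized signal. The submitters' processing notes name DRAGEN, DESeq2 and mm10; versions, annotation and read assignment are not stated there. The signal equals the count over a factor that varies by gene and library, so the deposited counts may be rounded estimates, and they were analysed as deposited. There were 0 columns of other samples. Of 42256 identifiers 42170 had a name in GENCODE M21.

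The test was edgeR 4.0.16 (R 4.3.3) quasi-likelihood with TMM scaling, its default low-count filter, robust moderation and genotype as the only term. Benjamini-Hochberg adjustment covered 15852 genes, at a threshold of 0.05, and standard errors were derived from the fold change and the F statistic. The common biological coefficient of variation was 13.5%. On simulated counts of this comparison with 15852 genes, the script was tested for recovery of known changes. Log2 CPM profiles used a prior count of 2, and limma 3.58.1 on the authors' values a pseudocount of 1. Other settings were DESeq2 1.42.0 and its size factors, library size alone, other low-count filters (none, or 1 CPM in 4 libraries), limma-voom with quality weights, no robust moderation, overlapping models summed, other thresholds and windows, and each library left out. The authors' factors as offsets, same-strand sums and the summed rows with each library left out were added after seeing the data.

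Members and lists were chosen with earlier results of these data known. Genes named are the members, the models overlapping them, the 6 non-member genes of smallest p within 1 Mb, the 3 most similar profiles for Pla2g4b, Capn3 and Exd1, and in each list the calls and the 2 genes of smallest p. Predicted models were named only where they overlap a member. Slc24a5, Ehd4, Kap and Lyz2 were named after their values were seen. Exact binomial intervals (Clopper-Pearson) cover counting error only.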

Additional observations from a re-analysis of the deposited data

Results flagged for a closer look

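Each gene's 4 libraries per genotype were screened for a library whose gap to the nearest other exceeded Dixon's 95% critical share of the group's range, a criterion that chance alone meets in about 1 in 20 groups. Of 32 groups screened, 4 met it. Jmjd7 in CDH11+/+ replicate 1, at 3.69 CPM, lay far above the 0.380 to 0.925 CPM of the other controls. Gm28042, which overlaps Jmjd7, lay at 7.38 CPM in that same library against 0.617 to 1.37 CPM. These share reads or start sites and a library, so they are not separate events. Mapkbp1 in CDH11+/+ replicate 2, at 32.9 CPM, lay below the 36.0 to 36.4 CPM of the other controls, and Mapkbp1 in CDH11-/- replicate 4, at 34.6 CPM, lay above the 31.5 to 31.8 CPM of the other CDH11-/- libraries.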

How the results depend on the processing

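No paired analysis was possible because the titles number the libraries 1 to 8 and the genotypes share no number. Pla2g4b, Jmjd7, Capn3 and Exd1 kept their signs under all 19 settings, but not their calls. Pla2g4b lost its call in 3 (limma on the authors' values, the authors' factors as offsets, same-strand models summed), Capn3 in 8 and Exd1 in 9, while Jmjd7 gained one in 5. The losses of Capn3 include both summed rows, which consist mostly of Ganc or of Ganc and Tmem87a counts. The gains of Jmjd7 include the row summed with Sptbn5, which is the same row for Pla2g4b. The sign of Zfp106, which was not called, turned with limma on the authors' values (-0.036), with the authors' factors as offsets (-0.038) and without CDH11+/+ replicate 3 (-0.0040, the lowest of -0.0040 to 0.070 over the fits with 1 library left out).

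Of 115 genes past the threshold there were 515 with DESeq2, 685 with limma-voom, 54 with limma on the authors' values, 65 with offsets, 24 at 0.01, 312 at 0.1 and 27 to 993 when 1 library was left out, the highest without CDH11+/+ replicate 1. The 3 calls within 1 Mb became 5 with limma-voom, 1 each with limma on the authors' values, with offsets and with same-strand models summed, and 1 to 6 with 1 library left out. The 3 member calls became 1 with each of those last 3 settings and 1 to 4 with 1 library left out. The 0 other calls there became 1 with limma-voom and 0 to 2 with 1 library left out, 2 without CDH11+/+ replicate 1. The causes were not tested. Counts were lowest for Pla2g4b and Jmjd7, at 8 to 25 and 5 to 40 counts per control library.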
